A study of Rattus norvegicus with 12 samples.

Results

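The choroid plexus is a ciliated epithelium that hangs into the brain ventricles beside the hippocampus and makes cerebrospinal fluid. Mature miRNAs are short RNAs that bind messenger RNAs mainly through a seed, bases 2 to 8 from the 5′ end, and repress their translation. In rodent brain miR-448-3p, miR-204-5p and miR-211-5p are known choroid plexus markers. The gene of miR-448 lies in Htr2c, the gene of a serotonin receptor that choroid plexus cells make in large amounts, and that of miR-204 lies in Trpm3, another choroid plexus gene.

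Hippocampal small RNA libraries from 12 rats were divided by how much of this signal they held. The division was chosen by the level of miR-448-3p, in counts scaled to a library of 1000000 counts (CPM). A library under 600 CPM was marker-low and a library at 600 CPM or more was marker-high, which gave 4 marker-low and 8 marker-high of the 12 libraries. These classes came from the data and are not groups of the study. Each library is 1 male Sprague Dawley rat of postnatal day 70 to 80, whose right hippocampus was taken 3 h after an injection of vehicle (Veh, 4 rats) or of 4 g/kg ethanol (EtOH, 8 rats), and each is named by its treatment and animal number. The marker-low libraries were Veh 10, EtOH 3, EtOH 15 and EtOH 23. The marker-high libraries were 3 vehicle (Veh 9, Veh 19, Veh 20) and 5 ethanol rats (EtOH 4, EtOH 7, EtOH 8, EtOH 16, EtOH 24).

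By the labels the right hippocampus was dissected, while the study's methods describe dorsal hippocampus taken from frozen brains with small biopsy tools. Each library is bulk tissue that mixes all cells the sample held, and fewer cells of a type cannot be told apart from less of its RNA per cell. Totals ran from 2071127 to 3598771 counts in the marker-low and from 1960704 to 4917928 counts in the marker-high libraries. The mean log2 total of the marker-low libraries differed by -0.19 from that of the marker-high libraries, which did not pass an exact permutation test (two-sided, 224 splits within treatment, p = 0.469). An amount of 3 counts was worth 0.610 to 1.53 CPM, and all intervals and floors cover counting error only.

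The mature sequences of the markers are shown first because miR-204-5p and miR-211-5p carry 1 seed while miR-448-3p carries another. They are written 5′ to 3′ from RefSeq (rat assembly GRCr8), with the seed in capitals.
miR-448-3p: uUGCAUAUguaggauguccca
miR-204-5p: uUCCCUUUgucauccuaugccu
miR-211-5p: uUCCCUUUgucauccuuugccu
The sequences of miR-204-5p and miR-211-5p differ at 1 of 22 positions, and both had fractional counts in all 12 libraries, as when reads are shared between related miRNAs.

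The values that made the classes are given as a description, without a test. Expression of miR-448-3p was 485 CPM in Veh 10, 283 in EtOH 3, 293 in EtOH 15 and 440 in EtOH 23. In the marker-high libraries it was 723 at the lowest (EtOH 7), 973 at the median and 1358 at the highest (EtOH 8). The nearest libraries to the limit were Veh 10 below it, with 1089 counts (95% Wilson interval 457 to 515 CPM), and EtOH 7 above it, with 1418 counts (687 to 762 CPM). EtOH 3 and EtOH 15 were thus the lowest pair, Veh 10 and EtOH 23 lay between them and the marker-high libraries, and none was without the marker.

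The other 2 markers, also left out of the test, gave the same classes. Expression of miR-204-5p was 24026 CPM in Veh 10, 14237 in EtOH 3, 14141 in EtOH 15 and 22423 in EtOH 23, against 30287 to 53565 (median 38417) in the marker-high libraries. It ranked between 12 and 17 of 753 listed miRNAs in the marker-low and between 5 and 9 in the marker-high libraries. Expression of miR-211-5p was 5842, 2691, 3353 and 5715 CPM in the same 4 libraries, against 6477 to 12347 (median 8764). Together the 3 markers took 1.72% to 3.04% of the counts of marker-low and 3.75% to 6.73% of those of marker-high libraries. The opposite arm miR-448-5p was at 3.51 to 8.91 CPM and 11.8 to 22.1 CPM. The arm miR-204-3p was at 1.34 to 4.47 CPM and 3.57 to 10.4 CPM, where the classes overlapped, and miR-211-3p had 0 counts in all 12 libraries.

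**Figure D1:**
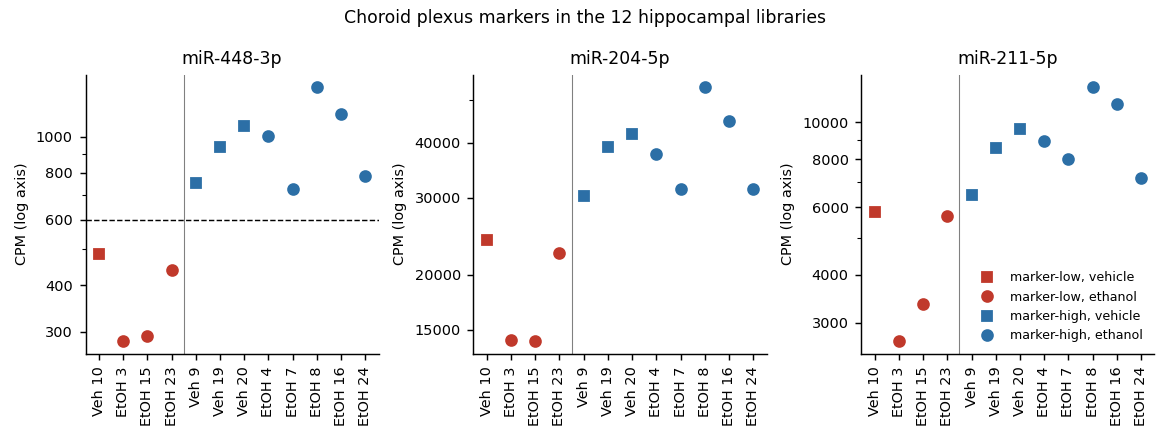
CPM (log axis) of the 3 choroid plexus markers in each of the 12 libraries, marker-low at the left of the vertical line, with squares for vehicle and circles for ethanol rats. The dashed line is the limit of 600 CPM of miR-448-3p, and for miR-204-5p and miR-211-5p every marker-low library also lies below every marker-high library.

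Marker-low and marker-high libraries were compared across 415 miRNAs with 10 or more counts in at least 3 libraries, with treatment in the model (quasi-likelihood test of edgeR, p adjusted by Benjamini-Hochberg). All 6 arms of the markers were left out. A miRNA with an adjusted p under 0.05 was called. The classes were made from miR-448-3p in the same libraries, so the test asks which other miRNAs moved with it. In the marker-low libraries 9 of 415 miRNAs (2.17%) were called lower and 0 (0.0%) higher. Before adjustment 30 lower and 33 higher ones had a p under 0.05, and the smallest adjusted p of a higher one in edgeR's fit was 0.0934. DESeq2 called 11 lower and limma 9 lower, and both called 0 higher.

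The 9 were miR-1298, miR-3552 and miR-764-3p, both arms of miR-34b and of miR-34c, and miR-378a-5p and miR-378b. RefSeq places miR-1298, miR-3552 and miR-764 in Htr2c, as it does miR-448, so these 3 share a host gene with the miRNA that made the classes and are not independent of it. It places miR-34b and miR-34c, known from cells with motile cilia, in Hoatz, and miR-378a in Ppargc1b. In 7 of the 9, all 4 marker-low libraries lay below all 8 marker-high libraries. Over the 415 tested miRNAs the classes did not overlap in this direction for 7 (1.69%) and in the opposite direction for 5 (1.2%).

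Sequences of these miRNAs are shown to separate those that share a seed from those that do not. RefSeq's table held 8 of the 9, and the 2 arms of miR-449 with the miR-34 seed are added for comparison.
miR-1298: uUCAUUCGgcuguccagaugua
miR-3552: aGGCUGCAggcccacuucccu
miR-764-3p: gAGGAGGCcauaguggcaacugu
miR-34b-5p: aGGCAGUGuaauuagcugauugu
miR-34c-5p: aGGCAGUGuaguuagcugauugc
miR-449a-5p: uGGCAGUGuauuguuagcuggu
miR-449c-5p: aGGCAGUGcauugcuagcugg
miR-34b-3p: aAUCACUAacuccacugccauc
miR-34c-3p: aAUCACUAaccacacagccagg
miR-378a-5p: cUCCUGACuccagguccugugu
The Htr2c miRNAs carry different seeds. The 5p arms of miR-34b and miR-34c share a seed with each other and with miR-449a-5p and miR-449c-5p, and their 3p arms share a second seed. The 5p arms of miR-34b and miR-34c differ at 2 of 23 positions and had fractional counts in all 12 libraries, whereas their 3p arms differ at 5 of 22 and had fractional counts in at most 1.

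Expression of miR-1298, the most abundant of the Htr2c miRNAs, was 2492 CPM in Veh 10, 1452 in EtOH 3, 1458 in EtOH 15 and 2308 in EtOH 23. In the marker-high libraries it was 3745 at the lowest, 5282 at the median and 7534 at the highest. No marker-low library reached the lowest marker-high library, and the log2 difference was -1.45 (SE 0.22, adjusted p = 0.0039 in edgeR's quasi-likelihood test), a level of 0.365 times that of the marker-high libraries.

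For miR-3552 the 4 values were 15.2, 11.1, 16.7 and 15.3 CPM, against 31.2 to 67.9 (median 41.2), with a log2 difference of -1.58 (SE 0.23, adjusted p = 0.0039). All 4 marker-low values lay below the lowest marker-high value. For miR-764-3p they were 107, 71.5, 57.2 and 77.0 CPM, against 103 to 184 (median 139), with a log2 difference of -0.88 (SE 0.17, adjusted p = 0.0134). Here Veh 10 lay above EtOH 7, so the classes overlapped. The opposite arm miR-764-5p was rare, at 0.278 to 2.67 CPM and 1.02 to 5.18 CPM, and did not pass (log2 difference -1.40, adjusted p = 0.273). RefSeq's annotation of Htr2c holds a further miRNA, miR-1912, whose 3p arm had 0 counts and whose 5p arm reached 2.07 CPM at most, so neither was tested.

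Expression of miR-34c-5p was 3008 CPM in Veh 10, 1386 in EtOH 3, 1910 in EtOH 15 and 2901 in EtOH 23, against 4403 to 7804 (median 5061) in the marker-high libraries. The log2 difference was -1.29 (SE 0.23, adjusted p = 0.00818 in edgeR's quasi-likelihood test). For miR-34b-5p the 4 values were 1445, 601, 775 and 1361 CPM, against 1806 to 3410 (median 2241), a log2 difference of -1.22 (SE 0.24, adjusted p = 0.0137). In both, Veh 10 and EtOH 23 were the higher pair of the marker-low libraries and EtOH 3 was the lowest of all 12.

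The 3p arms were rarer. For miR-34b-3p the values were 60.2, 29.9, 33.1 and 56.5 CPM, against 88.7 to 197 (median 129), a log2 difference of -1.62 (SE 0.28, adjusted p = 0.00818). For miR-34c-3p they were 25.9, 10.6, 13.6 and 21.4 CPM, against 30.6 to 67.2 (median 43.8), a log2 difference of -1.43 (SE 0.28, adjusted p = 0.0134). The differences between arms were not tested. In none of the 4 arms did the classes overlap.

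The called miRNAs miR-378a-5p and miR-378b belong to neither set, and miR-378a, made from an intron of a coactivator gene of mitochondrial metabolism, is known from metabolically active tissue. Expression of miR-378a-5p was 14.3 CPM in Veh 10, 20.3 in EtOH 3, 15.6 in EtOH 15 and 17.6 in EtOH 23, against 21.4 to 33.4 (median 29.3), a log2 difference of -0.77 (SE 0.14, adjusted p = 0.00818 in edgeR's quasi-likelihood test). Its order among the marker-low libraries was not that of miR-448-3p, since EtOH 3 was the highest and Veh 10 the lowest. Expression of miR-378b was 1085, 999, 818 and 816 CPM, against 1052 to 1318 (median 1169), a log2 difference of -0.37 (SE 0.09, adjusted p = 0.0362). For miR-378b the classes overlapped, and every library gave it a fractional count. It was the least stable of the 9, called in 20 of 30 settings and in 7 of the 12 fits that left out 1 library.

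**Figure D2:**
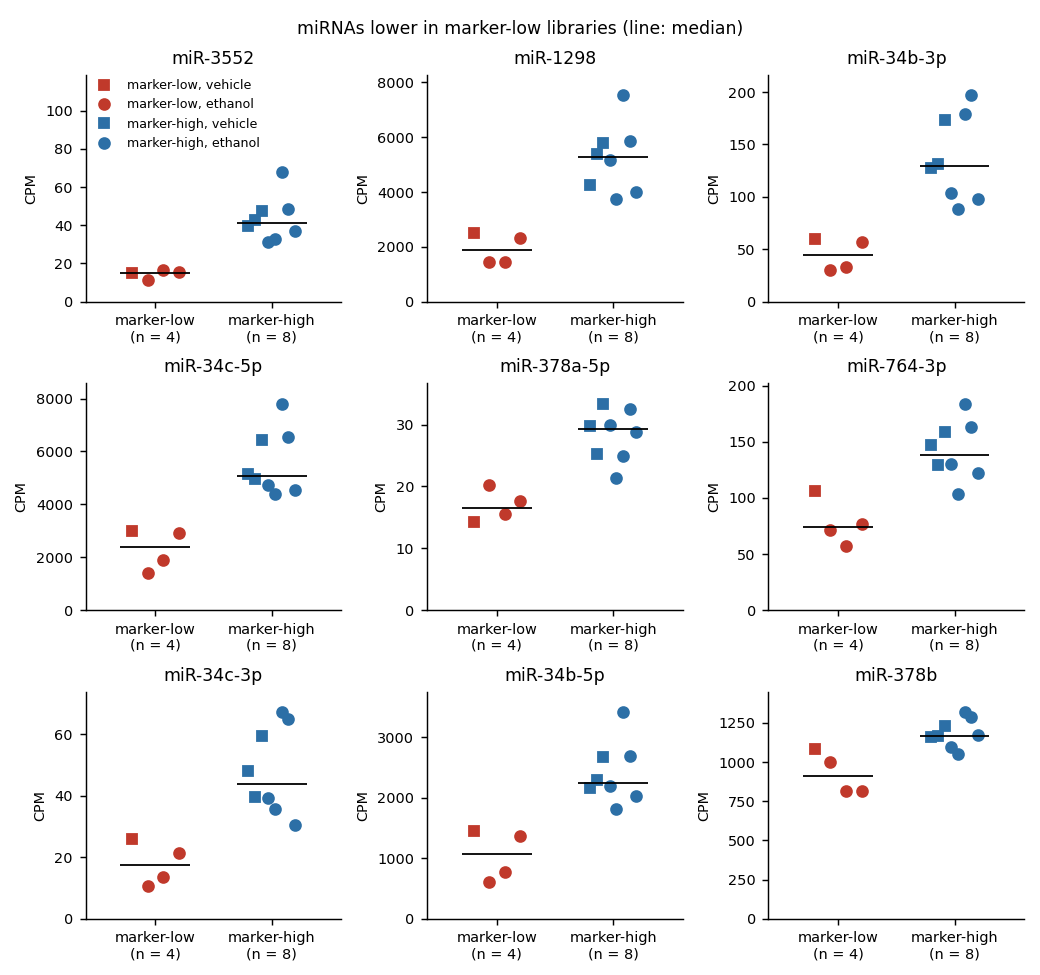
CPM (linear axis from 0) of the 9 miRNAs called lower in marker-low libraries, with 1 point per library, squares for vehicle and circles for ethanol rats, and a line at the class median. The classes are apart in 7 panels and overlap for miR-764-3p and miR-378b.

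The next by p was miR-375-3p, known from endocrine cells and epithelia, which did not pass. Its level was 90.9, 26.6, 68.1 and 88.8 CPM in the marker-low libraries, against 78.4 to 224 (median 175), a log2 difference of -1.29 (SE 0.33, adjusted p = 0.0812 in edgeR's quasi-likelihood test). EtOH 4 was the marker-high library within the marker-low range. It was called by DESeq2. It was also called without EtOH 4, but leaving out the library that overlapped favours a call.

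The level of each called miRNA was also set against miR-448-3p of the same library, as a description. The ratio of miR-1298 to miR-448-3p was 4.98 to 5.25 in the marker-low and 5.09 to 5.74 in the marker-high libraries. Over all 12 it varied 1.15-fold, while the level of miR-1298 itself varied 5.19-fold. The ratio of miR-34c-5p to miR-448-3p was 4.89 to 6.59 and 4.71 to 6.86, and that of miR-34b-5p was 2.12 to 3.09 and 2.18 to 2.86. For these 3 the ratios of the classes overlapped.

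Since miR-448-3p made the classes, a low value of it raises any ratio over it, and nothing is read from a higher ratio in the marker-low libraries. The ratio of miR-764-3p was 0.175 to 0.252 in the marker-low and 0.130 to 0.195 in the marker-high libraries. That of miR-204-5p was 48.3 to 51.0 and 37.6 to 43.4, and that of miR-378a-5p was 0.0294 to 0.0716 and 0.0184 to 0.0396. The ratio of miR-378b was 1.85 to 3.53 and 0.971 to 1.54. The ratios of miR-204-5p and of miR-378b did not overlap between the classes.

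**Figure D3:**
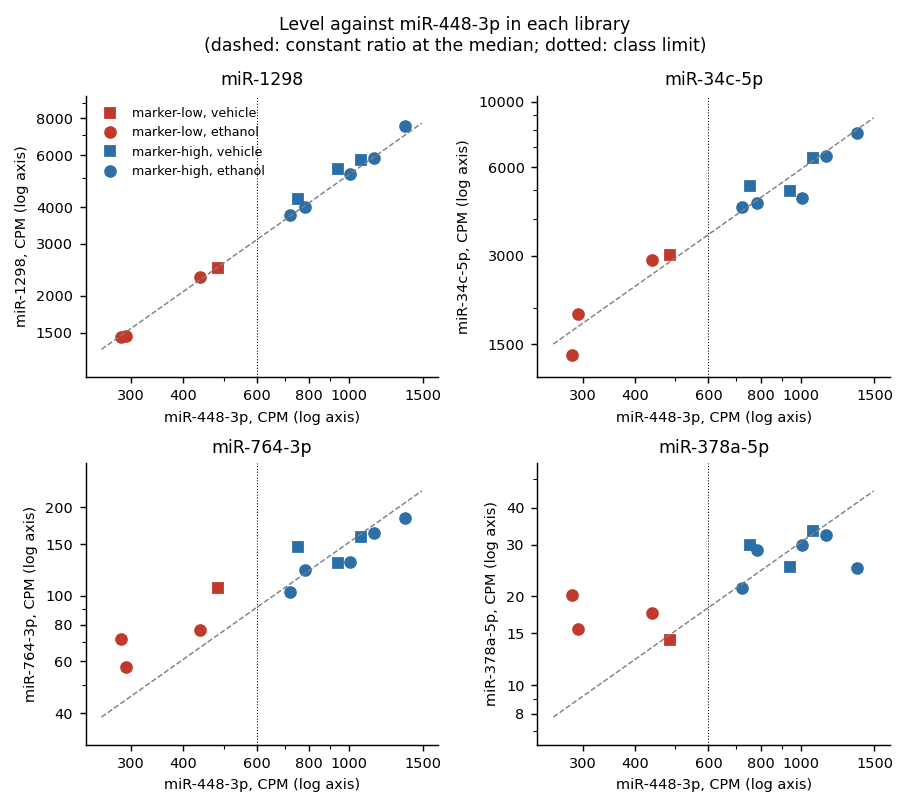
Level of 4 miRNAs against miR-448-3p in each library, both in CPM on log axes, with squares for vehicle and circles for ethanol rats. The dashed line is a constant ratio at the median and the dotted line the limit of 600 CPM: miR-1298 keeps near the dashed line in all 12 libraries, while miR-764-3p and miR-378a-5p lie on or above it in most marker-low libraries.

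Lists of miRNAs of cell types that the dissection could hold were then read from the same fit. Over all 415 tested miRNAs the median log2 difference was 0.03, with 178 below 0 and 237 above. All 6 tested miRNAs of multiciliated cells were below 0 and 4 of them, the arms of miR-34b and miR-34c, were called, with a list median of -1.25. The other 2 did not pass. Expression of miR-449a-5p was 11.1 to 39.6 CPM and 25.7 to 52.8 CPM (log2 difference -0.52, adjusted p = 0.375 in edgeR's quasi-likelihood test), and that of miR-449c-5p 3.12 to 5.28 CPM and 5.10 to 8.51 CPM (log2 difference -0.71, adjusted p = 0.108). The 3p arms of miR-449a and miR-449c had 0 counts.

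Of the epithelial miR-200 family only miR-141-3p had counts enough to be tested, at 13.3 to 21.4 CPM and 14.6 to 29.9 CPM (log2 difference -0.48, adjusted p = 0.243). In the cluster of miR-183, miR-96 and miR-182, known from sensory cells and the pineal gland, 3 members were tested and 0 were called. Expression of miR-182 was 201 CPM in Veh 10, 661 in EtOH 3, 153 in EtOH 15 and 208 in EtOH 23, against 326 to 961 (median 552; log2 difference -1.04, adjusted p = 0.252). Of the marker-low libraries EtOH 3 alone lay within the marker-high range. Without EtOH 3 miR-182 was called, with a log2 difference of -1.71 (adjusted p = 0.0243 in edgeR's quasi-likelihood test). Leaving out the 1 library that differed favours such a call, so nothing is read from it.

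Neuronal and oligodendrocyte miRNAs gave no call, and no list of astrocyte miRNAs was read. Of 20 tested arms of neuronal miRNAs 4 were below 0, the median log2 difference was 0.14, and 0 were called, with a smallest adjusted p of 0.165. That was miR-153-5p, which was higher in every marker-low than in any marker-high library. Its levels were 23.3 to 27.0 CPM and 15.5 to 22.3 CPM (log2 difference 0.36). The 4 below 0 were miR-218a-1-3p (log2 difference -0.62), miR-218a-2-3p (-0.27), miR-218a-5p (-0.11) and miR-137-3p (-0.14). Expression of miR-124-3p, a brain-enriched neuronal miRNA, was 2965 to 3632 CPM in marker-low and 2413 to 3552 CPM in marker-high libraries (log2 difference 0.12, adjusted p = 0.485). For miR-128-3p the levels were 7428 to 8990 CPM and 5623 to 7940 CPM (log2 difference 0.23, adjusted p = 0.252). For miR-153-3p they were 1522 to 1749 CPM and 1192 to 1544 CPM (log2 difference 0.19, adjusted p = 0.171). The summed level of the neuronal list was 39401 to 45077 CPM and 32613 to 42237 CPM. All 5 tested oligodendrocyte arms were above 0 and 0 were called, with a median of 0.21. Expression of miR-338-3p, an oligodendrocyte miRNA, was 9187 to 16703 CPM and 8549 to 15196 CPM (log2 difference 0.21, adjusted p = 0.666).

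Vascular miRNAs had a median log2 difference of -0.13 over 6 tested arms, with 0 called. Expression of miR-126a-3p, an endothelial miRNA, was 405 to 643 CPM and 495 to 585 CPM (log2 difference -0.11, adjusted p = 0.643). That of miR-143-3p, of smooth muscle, was 29449 to 66657 CPM and 36179 to 64132 CPM (log2 difference -0.22, adjusted p = 0.630). Of 11 tested arms of blood-cell and microglial miRNAs 9 were below 0 and 0 were called. Their log2 differences ran from -0.86 to 0.38, with a median of -0.13, and the abundant miR-146b-5p was at 0.02. The red-cell miRNA miR-451-5p was at a median of 66.9 CPM and 127 CPM, with overlapping ranges (log2 difference -0.46, adjusted p = 0.666), and miR-155-5p, of activated immune cells, at 3.89 to 9.17 CPM and 7.14 to 17.3 CPM (log2 difference -0.86, adjusted p = 0.108). The mesenchymal miR-214-3p was at 1.78 to 4.83 CPM and 3.05 to 6.75 CPM (adjusted p = 0.115 in edgeR's fit, with medians of 1.93 CPM and 4.79 CPM) and miR-199a-3p at 210 to 431 CPM and 300 to 420 CPM (log2 difference -0.24, adjusted p = 0.515), with 0 of 3 tested arms called. Without EtOH 3, the highest marker-low library, miR-214-3p was called with a log2 difference of -1.38 (adjusted p = 0.0243 in edgeR's quasi-likelihood test). The marker-low values left were 1.78 to 1.95 CPM, near the floor of 3 counts (0.610 to 1.53 CPM). No library had more than 18 counts of miR-214-3p, so that call rests on few reads. Leaving out the highest marker-low library also favours such a call. Of Hox-cluster miRNAs, miR-10a-5p was at 979 to 3634 CPM and 1974 to 8780 CPM (log2 difference -0.83, adjusted p = 0.315), and miR-10b-5p at 22.5 to 160 CPM and 6.02 to 290 CPM (log2 difference -0.17, adjusted p = 0.954).

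**Figure D4:**
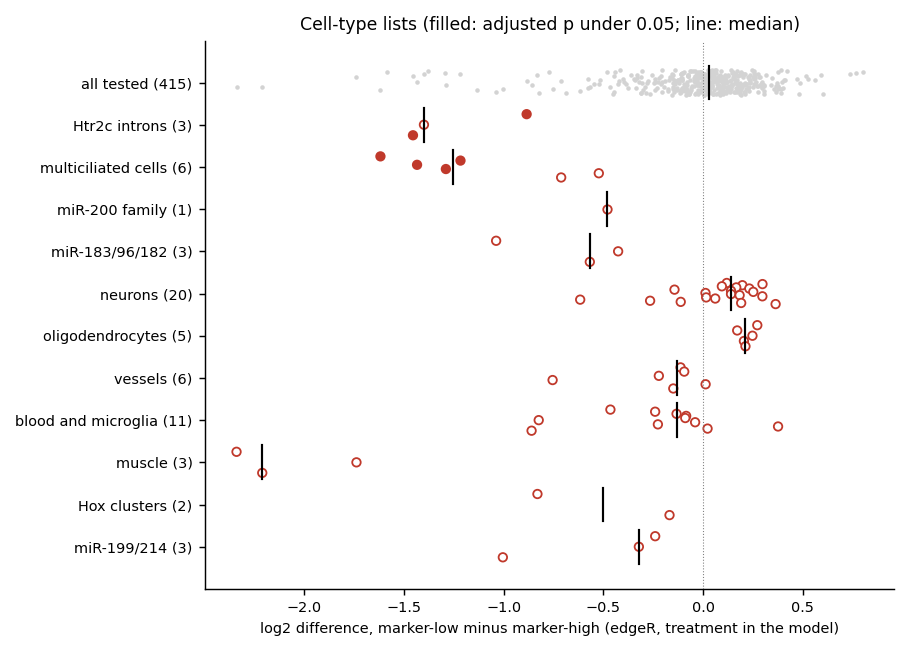
Log2 difference (marker-low minus marker-high) of each tested miRNA in the fixed lists, 1 point per mature miRNA, with all 415 tested miRNAs in grey at the top and a line at each median. Filled points are the called list members and occur in the Htr2c and multiciliated lists. The called miR-3552, miR-378a-5p and miR-378b are in no list and are not filled.

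Muscle miRNAs were high in some of the marker-high libraries. Expression of miR-133b-3p was 59.3 CPM in Veh 10, 102 in EtOH 3, 47.2 in EtOH 15 and 45.7 in EtOH 23. In the marker-high libraries it was 694, 585 and 699 in Veh 9, Veh 19 and Veh 20, 719 in EtOH 16, and 67.9 to 130 in the other 4. The 4 libraries above 500 CPM were thus all marker-high. The range of the remaining marker-high libraries overlapped that of the marker-low ones, with EtOH 4 and EtOH 8 above every marker-low library. The log2 difference was -2.21 (SE 0.70, adjusted p = 0.165 in edgeR's quasi-likelihood test), and miR-133a-3p (-1.74, adjusted p = 0.265) and miR-1b (-2.34, adjusted p = 0.245) did not pass either. The summed level of the 14 listed muscle arms was 110 to 281 CPM in the marker-low and 142 to 1861 CPM in the marker-high libraries, and 7 of the 14 had 0 counts in all libraries. The same 4 libraries had the highest levels of miR-133a-3p, and the comparison was repeated without them. The log2 differences were then -1.53 for miR-3552, -1.55 for miR-1298 and -1.37 for miR-34c-5p, and 0 miRNAs were called (smallest adjusted p = 0.177, 40 at an unadjusted p under 0.05). Veh 10 was the only vehicle library left and was taken up by the treatment term, so that fit compared 3 marker-low with 4 marker-high ethanol libraries.

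**Figure D5:**
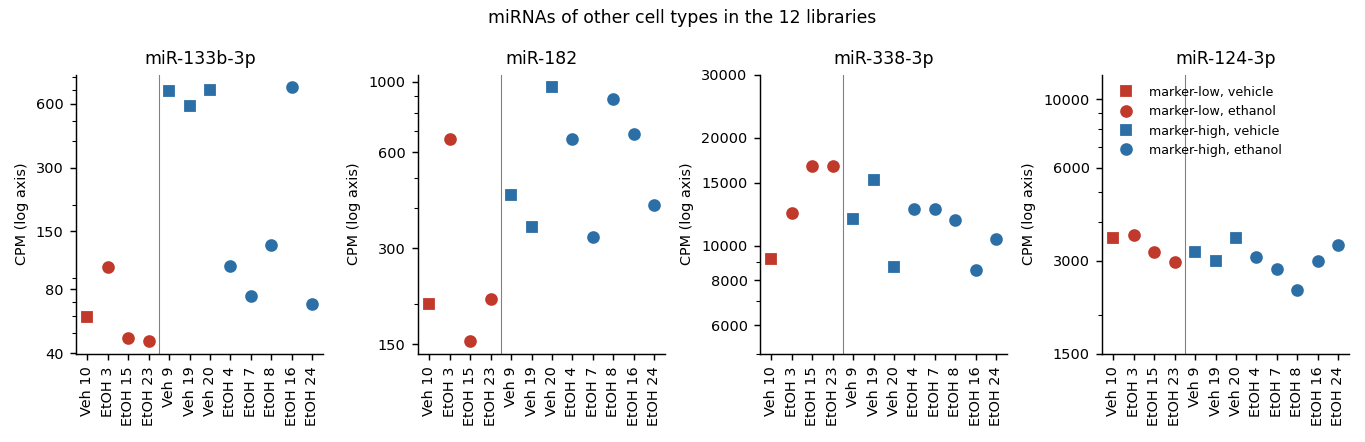
CPM (log axis) of a muscle miRNA (miR-133b-3p), miR-182, an oligodendrocyte miRNA (miR-338-3p) and a neuronal miRNA (miR-124-3p) in each library, marker-low at the left of the vertical line, squares vehicle and circles ethanol. The 4 libraries above 500 CPM of miR-133b-3p are marker-high, and EtOH 3 is the only marker-low library in the marker-high range of miR-182.

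None of the 5 most abundant tested miRNAs passed. Expression of miR-181a-5p was 116712 to 160824 CPM and 107680 to 145952 CPM (log2 difference 0.10, adjusted p = 0.745). The log2 difference of miR-30a-5p was -0.04, and miR-26a-5p and the related miR-26b-5p had 0.04 each. The last of the 5 is miR-143-3p, described above.

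Treatment was set beside the classes. Among marker-high libraries miR-448-3p was 753 to 1066 CPM in vehicle and 723 to 1358 CPM in ethanol rats. There miR-1298 was 4247 to 5798 CPM in vehicle and 3745 to 7534 CPM in ethanol rats. The ethanol range held the vehicle range for both, but the class rule had removed libraries with low miR-448-3p. These ranges therefore cannot show whether ethanol lowered either miRNA. In the marker-low class the single vehicle library lay above all ethanol libraries, at 485 against 283 to 440 CPM of miR-448-3p. For miR-1298 the values were 2492 against 1452 to 2308 CPM, and neither difference was tested. One vehicle rat and 3 ethanol rats were marker-low. In the ethanol rats alone, 3 against 5, the log2 differences of the 9 called miRNAs ran from -1.79 for miR-34b-3p to -0.49 for miR-378b. Their adjusted p values ran from 0.0516 to 0.0775, and by edgeR 0 miRNAs passed (36 before adjustment), while DESeq2's Wald test called 9, of which 8 are among the 9 above. The single marker-low vehicle library allows no such comparison within vehicle rats. With the classes in the model, ethanol and vehicle differed in 0 of 415 miRNAs (0.0%) at an adjusted p under 0.05 (edgeR's quasi-likelihood test, smallest adjusted p = 0.963), and 14 had an unadjusted p under 0.05. DESeq2 and limma also called 0. For the 9 miRNAs the log2 difference of ethanol minus vehicle lay between -0.19 and 0.05 (smallest unadjusted p = 0.338 in the same edgeR fit). These 9 were chosen because they followed the classes, and the class term stands in the same fit. Their small ethanol differences therefore cannot show whether ethanol moved them.

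Without EtOH 15, one of the lowest for miR-448-3p, 5 miRNAs were called, and miR-764-3p, miR-34b-5p, miR-34c-3p and miR-378b were not. Without any other single library 8 to 11 were called. The calls of miR-1298, miR-3552, miR-34b-3p, miR-34c-5p and miR-378a-5p held with each of the 12 libraries left out in turn.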

How the data were processed

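Small RNA (20 to 30 nt) from the right hippocampus of each rat was sequenced, and the authors deposited, for each rat, the expected counts of 753 mature miRNAs (estimated from the reads and not scaled for library size). The submitters' processing notes name cutadapt, Partek and the build rn5; the miRNA annotation and how reads were shared between miRNAs are not given in the sources used here. Expected counts were rounded to whole numbers for testing, and CPM used the column total of all miRNAs. The 415 tested miRNAs had 10 or more counts in at least 3 libraries; 333 of the 753 did not, and 5 of the 6 marker arms did but were left out. Libraries were fitted with R 4.3.3 and edgeR 4.0.16 (TMM factors, quasi-likelihood test, terms for treatment and class, Benjamini-Hochberg adjustment over all tested miRNAs); limma 3.58.1 and DESeq2 1.42.0 were alternatives. In all 66 pairs the libraries differed beyond sampling noise (smallest chi-square over its degrees of freedom 38.5), so none was counted as a repeat. The labels give no batch. The paper's methods state that libraries were multiplexed in sets for sequencing, and the set of each library is not given in the sources used here. The fit was tested on simulated data in which 200 of 415 miRNAs were changed between the classes. It called 53% of log2 changes of 0.5, 85% of those of 1 and 98% of those of 2. Far more miRNAs were changed there than were called in the data, which eases the adjusted threshold. These shares may therefore overstate what the real comparison could call. Changes smaller than 0.5 were not simulated. miRNAs were named by rule: the markers, list members, all called ones and at least the 10 with the smallest p, and the 5 most abundant. miR-3552 and miR-378 were in no list. The classes, members and lists were chosen with earlier results of these data known. Sequences and host genes come from RefSeq (GRCr8), matched by name for 688 of 753; as the build differs, no coordinates are given.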

Additional observations from a re-analysis of the deposited data

Results flagged for a closer look

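Values of each named miRNA, marker arm and library total were examined for a library far from the rest of its class. Of 86 sets of values, 7 held one, where chance gives about 1 in 20, or 4.3. Of these 7, 5 were EtOH 3 within the marker-low libraries. It was the highest for miR-182, at 661 CPM against 153 to 208 in the other 3, and for miR-183-5p, at 262 CPM against 16.7 at the lowest of the others. It was also the highest for miR-1b (66.1 CPM against 25.4 to 26.8), for miR-10b-5p (160 CPM against 22.5 to 30.1) and for miR-214-3p (4.83 CPM against 1.78 to 1.95). In the marker-high libraries EtOH 8 was the highest for miR-3552, at 67.9 CPM against 31.2 to 48.3, and EtOH 7 the lowest for miR-451-5p, at 46.4 CPM against 117 to 172. The causes were not tested.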

How the results depend on the processing

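Of the 9 miRNAs called between the classes, none changed direction in any alternative run. Between 8 and 11 miRNAs, all lower in the marker-low libraries, were called with other scaling factors, other filters on low counts, DESeq2, limma, a robust fit, no treatment term, the library total as covariate, unrounded counts, down-sampled counts and marker counts left out of the totals (the last chosen after seeing the data). With ethanol libraries only, edgeR called 0, and without the 4 libraries richest in miR-133a-3p (chosen after seeing the data) it also called 0; both compare fewer libraries, 3 with 5 and 3 with 4 ethanol rats. With the level of miR-448-3p as a continuous term in place of the classes 17 were called, 13 falling and 4 rising as the marker fell, and all 9 were among them. With the mean log2 level of miR-204-5p and miR-211-5p as that term 15 were called, 11 falling and 4 rising, with 8 of the 9 among them and miR-378a-5p lost. These markers gave the same classes as miR-448-3p, so that fit is not a separate check. Leaving out 1 library at a time gave 5 (without EtOH 15) to 11 (without EtOH 3). The ethanol comparison called 0 in every setting run.

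Some miRNAs that were not called changed sign. The log2 difference of miR-26a-5p was -0.0027 when 10 libraries had to pass the filter and -0.0078 with no filter, and -0.043 to 0.057 with 1 library left out. The log2 difference of miR-26b-5p was -0.0028 and -0.0078 in the same settings, and -0.043 to 0.055 with 1 library left out. The log2 difference of miR-10b-5p was 0.10 by limma, 0.059 and 0.26 against the continuous markers, and -0.96 to 0.38 with 1 library left out. Without the libraries richest in miR-133a-3p the log2 difference of miR-30a-5p was 0.0098 and the log2 difference of miR-183-5p was 0.0061. The causes were not tested. No paired analysis was possible because vehicle and ethanol rats share no animal number. Rare arms such as miR-764-5p, with at most 21 counts, are limited by depth.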

Other observations

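With the level of miR-448-3p as a continuous term, 8 miRNAs passed that the 2 classes had not called. They are described here after their values were seen, with slopes per log2 unit of lower miR-448-3p fitted by edgeR. Those that fell were miR-375-3p (slope -0.92, SE 0.19, adjusted p = 0.0175), miR-155-5p (-0.62, SE 0.13, adjusted p = 0.0175), miR-378a-3p (-0.23, SE 0.05, adjusted p = 0.0293) and miR-764-5p (-1.28, SE 0.32, adjusted p = 0.0426). With miR-764-5p both arms of miR-764 passed, and with miR-378a-3p both arms of miR-378a. Against the mean log2 level of miR-204-5p and miR-211-5p neither arm of miR-378a passed, while miR-375-3p, miR-155-5p and miR-764-5p did. The slope of miR-764-5p rests on at most 21 counts in a library. Its marker-low values of 0.278 to 2.67 CPM lay around the floor of 3 counts. For comparison the slope of miR-1298 was -1.05 (SE 0.04), that of miR-34c-5p -0.96 (SE 0.07) and that of miR-378a-5p -0.45 (SE 0.11).

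The 4 that rose were miR-136-3p (slope 0.18, adjusted p = 0.0426), miR-369-3p (0.21, adjusted p = 0.0426), miR-376b-5p (0.24, adjusted p = 0.0498) and miR-434-5p (0.17, adjusted p = 0.0293). Against the mean log2 level of miR-204-5p and miR-211-5p, miR-136-3p, miR-369-3p and miR-434-5p also passed, and miR-376b-5p did not. That fit is not a separate check, because these markers followed miR-448-3p. The ratio of miR-204-5p to miR-448-3p varied 1.36-fold, while the level of miR-204-5p varied 3.79-fold. The slopes of the 4 that rose are small beside those of the Htr2c and miR-34 miRNAs. CPM of a library share 1 total, so a rise in share and a fall of other miRNAs cannot be told apart.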
